A study of Mus musculus with 12 samples.

Results

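The genes described here encode the amino acid and peptide transporters of the mouse colon. All rows of the deposited table whose symbol belongs to solute carrier families 1, 3, 6, 7, 15, 36, 38 or 43 were taken, which gave 71 of 25904 genes. They are carriers or partner subunits, except for 3 neighbouring genes whose symbols are built on a carrier's name, Slc7a6os, Slc36a1os and Slc6a19os. Bulk colon RNA was sequenced over a course of dextran sulfate sodium (DSS), a polymer given in drinking water to damage the gut lining and inflame the colon. Per the series design, SPF mice aged 7 weeks drank water or 3% DSS over 6 days, and mid-colon was taken at day 0 (3 libraries), day 2 (3 libraries), day 4 (3 libraries) and day 6 (3 libraries). The labels name the tissue as colon and give no strain, sex or genotype. No group on water alone is labelled for days 2, 4 and 6, so DSS exposure and the day of harvest cannot be told apart. The comparisons follow the title's question, the course of colonic transcription in DSS colitis.

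Amino acid transporters move amino acids across the plasma membrane or out of lysosomes, driven by sodium, by protons or by exchange of one amino acid for another. In the heteromeric exchangers a heavy chain, Slc3a2 or Slc3a1, carries a light chain of family 7 to the cell surface, and the light chain decides which amino acids are moved. The colonic epithelium takes up amino acids and short peptides from the lumen and from blood, while activated immune cells and fibroblasts import leucine, glutamine, arginine and cystine for growth, nitric oxide and glutathione. Several of these genes are known targets of ATF4, a transcription factor of the response to amino acid shortage, and of Nrf2, which acts at antioxidant response elements.

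The upstream sequences of 2 genes are shown as 1 example of each motif, chosen from the genes that were higher at day 6. They are RefSeq sequences of GRCm38.p6, read on the minus strand, and end at the base before the annotated start. The first lies at chr3:50443614-50443863, upstream of Slc7a11, and the second at chr15:96699729-96699978, upstream of Slc38a2. Capitals mark the ATF4 response core in Slc7a11 and the antioxidant response core in Slc38a2.
Slc7a11: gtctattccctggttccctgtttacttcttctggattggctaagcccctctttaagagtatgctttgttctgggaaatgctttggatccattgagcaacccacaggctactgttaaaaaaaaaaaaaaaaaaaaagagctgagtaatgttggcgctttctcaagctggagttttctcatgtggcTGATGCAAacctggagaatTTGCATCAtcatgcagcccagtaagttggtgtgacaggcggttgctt
Slc38a2: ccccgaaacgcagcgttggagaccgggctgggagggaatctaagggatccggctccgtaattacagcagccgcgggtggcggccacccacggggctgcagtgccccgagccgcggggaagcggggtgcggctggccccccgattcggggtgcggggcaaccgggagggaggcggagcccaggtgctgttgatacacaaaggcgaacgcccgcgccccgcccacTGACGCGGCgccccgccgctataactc
The ATF4 core was searched as TGATGNAA and the antioxidant core as TGACNNNGC, on both strands, in windows of 300 bases that run from 250 bases before the start to 50 bases after it. Slc7a11 held 2 ATF4 cores in opposite orientations, at -66 to -59 and at -47 to -40 from the start. Slc38a2 held 1 antioxidant core, at -27 to -19. The ATF4 core occurred in 5 of 52 transporter promoters and in 1096 of all 27025 promoters (4.06%). The antioxidant core occurred in 9 of 52 transporter promoters and in 3369 of all promoters (12.5%). Among the tested genes, Slc1a4 and Slc7a7 also held the ATF4 core, and Slc43a1, Slc6a11, Slc7a1, Slc36a1 and Slc7a6 the antioxidant core. Of these, Slc1a4, Slc43a1 and Slc6a11 were called lower at day 4 or 6 and Slc7a1 and Slc36a1 higher, while Slc7a7 and Slc7a6 passed in no comparison. A letter match is a description of the sequence, and binding was not measured.

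Levels are given in CPM, the reads of a gene put on one total for every library, which the authors deposited, and a library held between 30979977 and 40930613 reads in the listed genes. A level of 1 CPM therefore rested on over 30 reads in each library. Of the 71 genes, 48 reached 1 CPM in at least 3 libraries and were tested. Another 20 stayed under 1 CPM in every library, among them Slc7a12, which had no read in any library. The other 3, Slc6a12, Slc6a2 and Slc7a15, peaked at 1.12, 1.25 and 1.42 CPM. The glutamate carriers of neurons and glia Slc1a2 and Slc1a6 peaked at 0.998 and 0.547 CPM, and the glutamine carriers Slc38a3 and Slc38a5 at 0.672 and 0.592 CPM. The light chain Slc7a10 peaked at 0.914 CPM, Slc6a13 at 0.337 CPM and Slc38a8 at 0.215 CPM. A further 12 were Slc6a5, Slc6a3, Slc6a16, Slc6a18, Slc6a20b, Slc6a21, Slc7a12, Slc7a13, Slc15a5, Slc36a3, Slc36a1os and Slc6a19os. None of these exceeded 0.193 CPM. Slc7a6os, the neighbouring gene that was tested, passed in no comparison and ranged over 20.05 to 29.3 CPM. Means are ± SD over 3 libraries. Differences are of log2(CPM + 1) ± standard error, with p-values from limma adjusted over all 15246 genes tested at a threshold of 0.05. This scale understates the change of low genes.

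No transporter gene passed the test at day 2. At days 4 and 6 genes moved in both directions. At day 2 none of the 48 tested genes passed limma's test in either direction, against 0.118% of all tested genes that were higher and 0.203% that were lower. At an unadjusted p under 0.05 in limma, 5 were higher and 7 lower, and no share of all genes was taken at that threshold. Of all 15246 genes edgeR called 13 higher and 22 lower, with no transporter among them. DESeq2 called 190 higher and 350 lower, among them 2 higher and 1 lower transporter genes. At day 4, 8 were higher and 9 lower than at day 0, and at day 6, 11 were higher and 10 lower. The shares at day 4 were 16.7% higher and 18.8% lower, where all genes had 21.2% and 12%. At day 6 they were 22.9% and 20.8%, where all genes had 23.5% and 12.4%. The higher share of transporters was thus below the background at day 4 and near it at day 6, and the lower share stood above it at both days, a difference that was not tested. At day 4 the lower share depended on the libraries and the tool: it was 8.33% against 8.91% of all genes without day 0 replicate 3, 10.4% against 11.7% without day 0 replicate 2, and 16.7% against 16.1% in edgeR. The median log2 difference of the transporters was 0.23 at day 4 and 0.18 at day 6, against 0.13 and 0.14 over all tested genes.

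Against day 2, day 4 had 7 transporter genes higher and 7 lower, with 21% and 12.9% of all genes called. Between day 6 and day 4 only Slc7a2 passed, higher at day 6, with 1.9% of all genes higher and 0.951% lower, and at an unadjusted p under 0.05 there were 7 higher and 5 lower. The F test over the 4 days called 21 of the 48 genes (43.8%), against 43% of all genes. The libraries of the 2 days did not overlap for 16 of the 17 genes called at day 4, with Slc6a11 the exception, and for 19 of the 21 called at day 6, with Slc1a4 and Slc1a7 the exceptions. These shares, 94.1% and 90.5%, stood beside 99.5% and 94.2% of all genes called at those days. In all, 25 of the tested transporter genes passed in at least 1 of the 5 comparisons and 23 in none. No share of all genes was taken for this count. Rescaling shifted the balance: the share of higher calls over all genes at day 4 was 63.8% on CPM as deposited, 50.6% with median-of-ratios scaling and 46.9% with quantile normalization. These scalings moved the median difference of all genes at day 4 from 0.13 to 0.02 and -0.02. With median-of-ratios scaling 5 transporters were higher and 9 lower (10.4% and 18.8%), against 15.9% and 15.6% of all genes. With quantile normalization 4 were higher and 10 lower (8.33% and 20.8%), against 15.1% and 17.2%. The lower share of transporters thus stood nearer to that of all genes than on CPM as deposited.

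**Figure D1:**
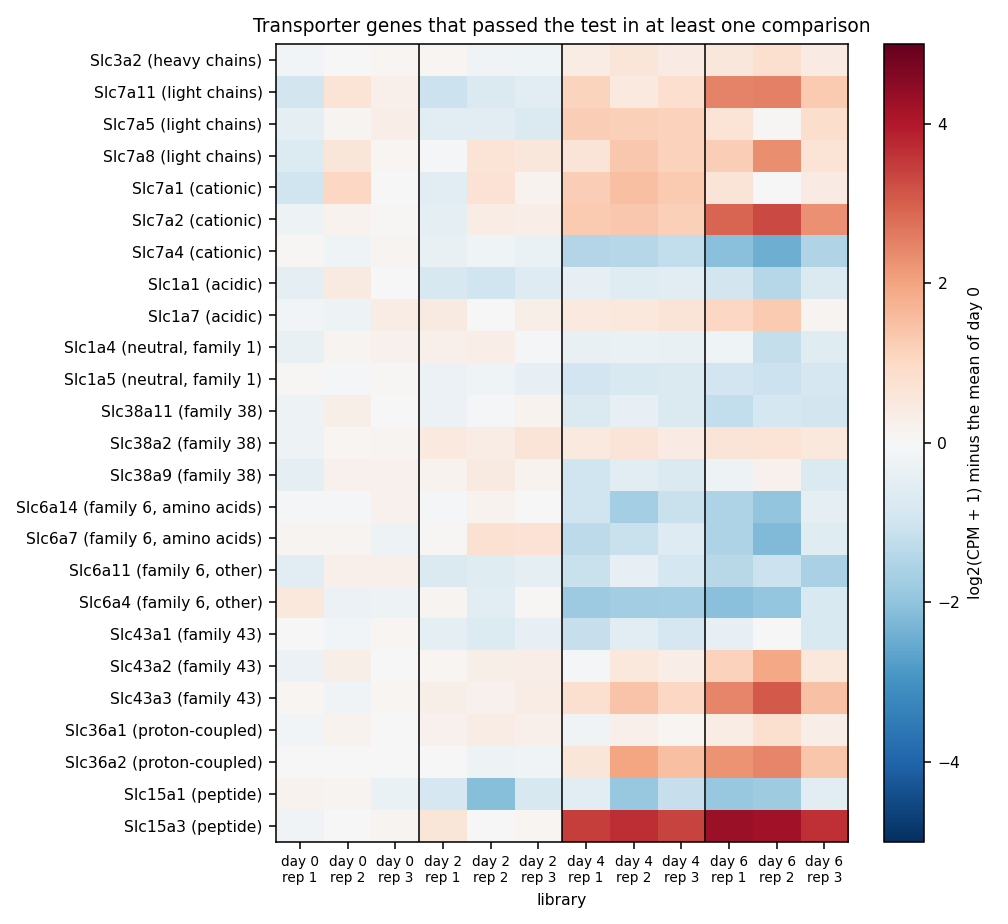
Heat map of the 25 transporter genes that passed limma's test in at least 1 of the 5 comparisons. Columns are the 12 libraries in order of day, rows are genes ordered by role, and colour is log2(CPM + 1) minus the day 0 mean; Slc15a3 shows the strongest red at days 4 and 6, with 49.8 to 95.9 CPM there.

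Several of these counts rested on single libraries. The count of higher genes at day 4 was 4 without day 4 replicate 2 (8.33%, against 14.8% of all genes in that fit). The count of lower genes at day 4 was 4 without day 0 replicate 3, and 5 without any one of day 0 replicate 2, day 4 replicate 1 and day 4 replicate 3. The share of all genes called lower fell in these fits too, to 8.91% without day 0 replicate 3 and to 11.7%, 8.47% and 9.04% without the other 3. Between day 6 and day 4 there were 5 higher and 2 lower genes without day 6 replicate 3. In that fit 1470 of all 15246 genes were higher and 780 lower. None of the transporters was higher without any one of day 4 replicate 1, day 4 replicate 3 and day 6 replicate 1. Of all genes, 73, 73 and 132 were higher in these fits. Without day 6 replicate 2, 1 gene was higher and 1 lower at day 2, beside 206 and 351 of all genes. At day 6 that fit had 9 higher and 9 lower (18.8% each), against 22.4% and 11.9% of all genes.

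Markers of the cell types in the tissue moved over the same days. The summed level of 10 colon absorptive epithelium markers was 9757 to 13994 CPM at day 0, 11493 to 13562 CPM at day 2, 7748 to 9846 CPM at day 4 and 5158 to 12199 CPM at day 6, and 4 of the 10 fell at day 6. The 10 monocyte and macrophage markers summed to 313 to 391, 270.3 to 384, 736 to 983 and 1074 to 2009.9 CPM at days 0, 2, 4 and 6, and all 10 rose at day 6. The 9 neutrophil markers summed to 5.46 to 10.8, 3.63 to 10.8, 265 to 345 and 302 to 1049 CPM, with 1 marker at 0 in all day 0 libraries, and 8 of 8 tested rose at day 6. The 8 fibroblast markers summed to 1579 to 2382, 2010.0 to 2516, 3253 to 5529.9 and 5036 to 11456 CPM, and all 8 rose at day 6. Goblet cell markers summed to 34153 to 77770.3 CPM at day 0 and 3296 to 8069 CPM at day 6, and all 8 fell. Of the other lists, 8 of 9 T cell markers, 6 of 8 endothelial markers and 4 of 9 enteric neuron and glia markers rose at day 6, while 5 of 8 smooth muscle markers, 2 of 4 tested small intestine markers and 1 of 8 tested skeletal muscle markers fell. Of 8 B cell and plasma cell markers, 2 rose and 4 fell. Among the day 6 libraries, replicate 3 had the highest epithelial sum (12199 CPM) and the lowest neutrophil sum (302 CPM), and replicate 2 the lowest epithelial sum (5158 CPM) and the highest fibroblast sum (11456 CPM). In bulk tissue, fewer cells of a type and less RNA per cell cannot be told apart, and the part of these cell types in the transporter results was not tested.

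The heavy chain Slc3a2, also called CD98 or 4F2hc, rose at days 4 and 6. Of the 6 tested light chains of family 7, 1 rose at day 4 (Slc7a5) and 2 at day 6 (Slc7a11 and Slc7a8), and none fell. Of all tested genes, 21.2% were higher and 12% lower at day 4, and 23.5% and 12.4% at day 6. The counts by role, here and below, rest on few genes and were not tested against these shares. Slc3a2 (GRCm38 chr19:8706882-8723369, minus strand) ranged over 72.9 to 87.4 CPM at day 0, 70.3 to 86.1 CPM at day 2, 106 to 124 CPM at day 4 and 107 to 141 CPM at day 6. It averaged 113 ± 10.03 CPM at day 4 against 81.1 ± 7.46 CPM at day 0 (log2 difference 0.47 ± 0.14, adjusted p = 0.0216) and at day 6 differed from day 0 by 0.59 ± 0.14, adjusted p = 0.00633. Libraries of days 4 and 6 all lay above those of day 0. The day 4 call was lost under median-of-ratios scaling, quantile normalization and edgeR and without day 0 replicate 1 or day 4 replicate 2 (adjusted p 0.0596 to 0.0985). The other heavy chain, Slc3a1, which carries the cystine exchanger of kidney and gut, passed in no comparison and ranged from 17.8 to 51.7 CPM over all libraries.

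Slc7a5 (LAT1; chr8:121881150-121907694, minus strand), which imports leucine and other large neutral amino acids, was highest at day 4. It had 20.6, 32.3 and 36.4 CPM at day 0, 19.5, 19.4 and 17.0 CPM at day 2, 68.9, 67.9 and 66.5 CPM at day 4 and 46.8, 30.2 and 53.8 CPM at day 6. All day 4 libraries lay above all other libraries, and the day 2 libraries all lay below those of day 0. The means were 67.8 ± 1.24 CPM at day 4 against 29.8 ± 8.17 CPM at day 0 (log2 difference 1.20 ± 0.23, adjusted p = 0.00215), and the difference of day 4 from day 2 was 1.81 ± 0.23, adjusted p = 0.000131. At day 6 its mean of 43.6 ± 12.1 CPM did not pass against day 0 (0.53 ± 0.23, adjusted p = 0.0872) or against day 4 (-0.66 ± 0.23, adjusted p = 0.15).

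Slc7a11 (xCT; chr3:49892526-50443614, minus strand), which brings in cystine in exchange for glutamate and so feeds glutathione synthesis, is the gene whose upstream sequence with 2 ATF4 cores is shown above. It had 2.10, 8.60 and 6.01 CPM at day 0, 1.84, 2.58 and 2.98 CPM at day 2, 12, 7.34 and 9.60 CPM at day 4 and 31.7, 32.7 and 13.7 CPM at day 6. The day 6 libraries were the 3 highest, while those of day 4 overlapped with those of day 0 and lay above those of day 2. Slc7a11 averaged 26 ± 10.7 CPM at day 6 against 5.57 ± 3.27 CPM at day 0 (log2 difference 2.09 ± 0.41, adjusted p = 0.00251), and day 4 differed from day 2 by 1.61 ± 0.41, adjusted p = 0.0112. Day 4 against day 0 did not pass (0.82 ± 0.41, adjusted p = 0.15).

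Slc7a8 (LAT2; chr14:54722209-54781946, minus strand), an exchanger of neutral amino acids, was higher at day 6. It had 5.89, 15.9 and 11 CPM at day 0, 9.66, 16.9 and 15.4 CPM at day 2, 16.7, 27.5 and 23.9 CPM at day 4 and 25.2, 54.4 and 16.8 CPM at day 6. The day 6 libraries lay above those of day 0, with replicate 2 far above the other 2. The means were 32.1 ± 19.7 CPM at day 6 against 10.9 ± 5.03 CPM at day 0 (log2 difference 1.40 ± 0.42, adjusted p = 0.0233), a call that did not hold without day 6 replicate 2 or without replicate 1 or 3 of day 0 (adjusted p 0.0519 to 0.0971) and in the fit of days 0 and 6 alone (0.082). Slc7a7 and Slc7a6, which exchange cationic for neutral amino acids and sodium, passed in no comparison and ranged over 44.4 to 75.8 and 21.4 to 42.4 CPM. Slc7a9, the partner of Slc3a1, ranged over 1.46 to 15.5 CPM and did not pass either.

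Set per kilobase of exon, the scale on which genes can be compared with each other, the 6 light chains known to pair with Slc3a2 summed to 33.8 ± 3.33 CPM per kb at day 0, 31.2 ± 1.26 at day 2, 50.7 ± 1.77 at day 4 and 46.5 ± 2.12 at day 6. Slc3a2 itself was at 23.0 ± 2.11, 21.6 ± 2.46, 32.0 ± 2.84 and 34.9 ± 4.84 CPM per kb on those days. The ratio of light chains to Slc3a2 was 1.47 ± 0.0214 at day 0, 1.45 ± 0.105 at day 2, 1.59 ± 0.0822 at day 4 and 1.35 ± 0.23 at day 6, so the libraries of day 6 spanned values above and below those of day 0. Within the sum the largest chain by mean was Slc7a7 on every day. It was at 17.5 ± 1.1 CPM per kb at day 0, 17.7 ± 1.85 at day 2, 20.6 ± 0.52 at day 4 and 19.0 ± 4.95 at day 6. Slc7a5 was at 18.3 ± 0.335 CPM per kb at day 4 against 8.03 ± 2.2 at day 0. Slc7a8 was at 6.42 ± 3.94 CPM per kb at day 6 against 2.19 ± 1.0 at day 0, and Slc7a11 at 1.87 ± 0.766 at day 6 against 0.4 ± 0.235 at day 0.

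**Figure D2:**
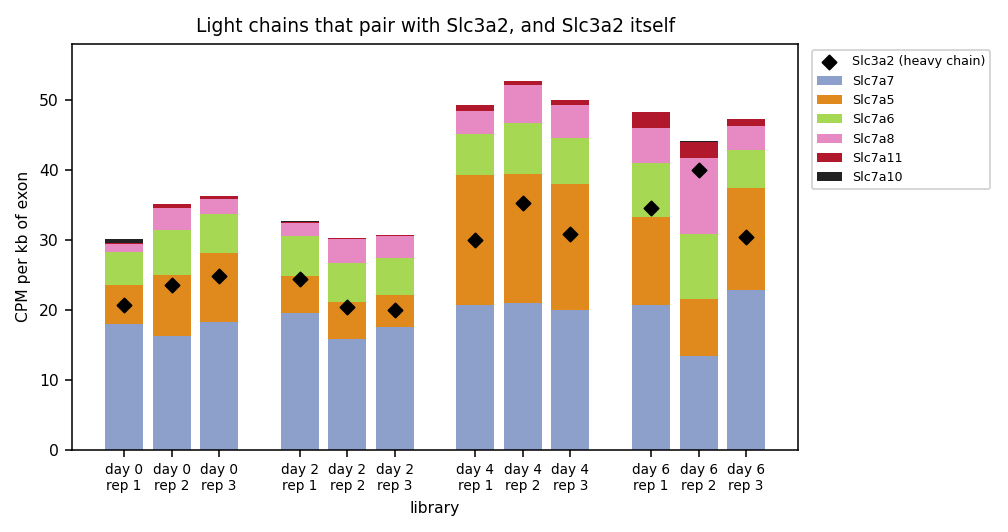
Stacked bars give the level of each light chain that pairs with Slc3a2, and diamonds that of Slc3a2, in CPM per kb of exon for each of the 12 libraries. The stacks of days 4 and 6 stand above those of days 0 and 2, the orange band of Slc7a5 is widest at day 4, and the tallest stack, at 52.6 CPM per kb, is day 4 replicate 2.

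Of 5 tested cationic amino acid carriers and relatives, 2 were higher (Slc7a2 and Slc7a1) and 1 lower (Slc7a4) at day 4. At day 6, 1 was higher (Slc7a2) and 1 lower (Slc7a4). Slc7a2 (CAT2; chr8:40862396-40922308, plus strand), which carries arginine and is induced in activated macrophages, had 2.34, 3.55 and 3.20 CPM at day 0, 1.89, 4.20 and 4.07 CPM at day 2, 8.97, 9.18 and 8.12 CPM at day 4 and 29.2, 38 and 18.5 CPM at day 6. All day 4 libraries lay above those of days 0 and 2, and all day 6 libraries lay above those of day 4. The means were 8.75 ± 0.562 CPM at day 4 against 3.03 ± 0.623 CPM at day 0 (log2 difference 1.29 ± 0.28, adjusted p = 0.00509), and 28.5 ± 9.77 CPM at day 6 (2.83 ± 0.28, adjusted p = 2.14e-05 against day 0). Its rise of day 6 over day 4 (1.54 ± 0.28, adjusted p = 0.0165) did not hold without replicate 1 or 3 of day 4 or without day 6 replicate 1 (adjusted p 0.0575 to 0.0793).

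Slc7a1 (CAT1; chr5:148327410-148399904, minus strand), the widely expressed carrier of arginine and lysine, had 17.9, 75.2 and 35.5 CPM at day 0, 24.9, 61.5 and 40.9 CPM at day 2, 87.9, 104 and 90.6 CPM at day 4 and 57.1, 37.3 and 49.1 CPM at day 6. The 3 day 4 libraries were the highest of the 12, and day 0 ranged widely. Slc7a1 averaged 94.3 ± 8.77 CPM at day 4 against 42.9 ± 29.4 CPM at day 0 (log2 difference 1.34 ± 0.43, adjusted p = 0.0334), and at day 6 the difference from day 0 was 0.36 ± 0.43, adjusted p = 0.541. The day 4 call did not hold without replicate 1 or 3 of day 0 or any one day 4 library (adjusted p 0.068 to 0.125), and without day 0 replicate 1 the difference was 0.85. It was also lost under both rescalings, in edgeR and in DESeq2 (up to 0.108).

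Slc7a4 (chr16:17572018-17583214, minus strand), a relative of these carriers with no settled substrate, had 30.3, 24.8 and 31.9 CPM at day 0, 22.4, 24.4 and 22.6 CPM at day 2, 9.82, 10.2 and 11.7 CPM at day 4 and 6.05, 4.44 and 9.48 CPM at day 6. Its levels of days 4 and 6 lay below all those of days 0 and 2. The means were 10.6 ± 0.965 CPM at day 4 against 29.0 ± 3.75 CPM at day 0 (log2 difference -1.37 ± 0.21, adjusted p = 0.000581) and 6.65 ± 2.57 CPM at day 6 (-2.02 ± 0.21, adjusted p = 3.08e-05 against day 0). P2rx6, a gene on the opposite strand that overlaps Slc7a4, was lower too, by 1.07 at day 4 and 1.13 at day 6 on the log2 scale. It had at most 4.46 CPM in any library. The reads of the pair may be shared if their exons overlap, which was not checked. Slc7a14, a lysosomal relative, reached 16.4 ± 11.8 CPM at day 6 against 5.86 ± 0.886 CPM at day 0 and did not pass (adjusted p = 0.0514), and Slc7a3 stayed between 0.476 and 1.83 CPM.

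**Figure D3:**
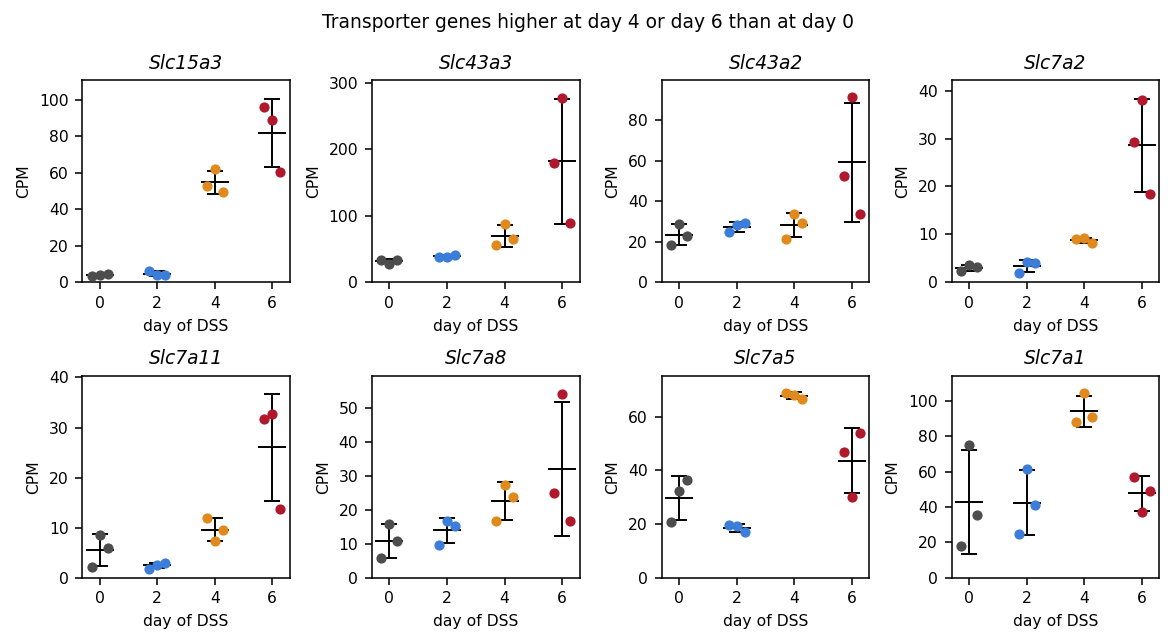
CPM in each library (points), with the day mean and SD (bars), for 8 transporter genes that were higher at day 4 or day 6 than at day 0; the vertical axes start at 0 and differ between panels. Slc15a3, Slc43a3 and Slc7a2 had their highest libraries at day 6, and Slc7a5 and Slc7a1 at day 4.

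In family 1, the 3 tested carriers of acidic amino acids held 1 higher and 1 lower gene at day 6 and none at day 4. Of the 2 neutral exchangers, Slc1a5 was lower at both days and Slc1a4 at day 6. Slc1a1 (EAAT3; chr19:28835049-28913960, plus strand), which takes up glutamate, aspartate and cysteine, had 30.7, 58.2 and 41.9 CPM at day 0, 23.9, 20.4 and 27.0 CPM at day 2, 31.7, 27.1 and 28.9 CPM at day 4 and 21.9, 15.2 and 24.9 CPM at day 6. The day 6 libraries lay below all those of day 0, as did those of day 2, though only day 6 passed. The means were 20.7 ± 4.94 CPM at day 6 against 43.6 ± 13.8 CPM at day 0 (log2 difference -1.02 ± 0.23, adjusted p = 0.00548), and day 2 differed from day 0 by -0.81 ± 0.23, adjusted p = 0.178. Slc1a7, a glutamate carrier of the retina, was low throughout and reached 0.529 to 2.43 CPM at day 6 against 0.156 to 0.814 CPM at day 0 (0.83 ± 0.28, adjusted p = 0.0381). That call was lost without day 0 replicate 1 or 2, day 2 replicate 3, day 6 replicate 1 or 2 or any one day 4 library (adjusted p 0.0504 to 0.123). It was also lost without the filter on low values and in the fit of days 0 and 6 alone (up to 0.132). Slc1a3, the glial glutamate carrier, ranged over 0.964 to 3.71 CPM and did not pass.

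Slc1a5 (ASCT2; chr7:16781340-16798274, plus strand), a sodium-dependent exchanger that takes up glutamine, ranged over 235 to 259 CPM at day 0, 189 to 216 CPM at day 2, 129 to 151 CPM at day 4 and 118 to 138 CPM at day 6. No library of day 4 or 6 reached the levels of day 0 or day 2. Slc1a5 averaged 143 ± 11.9 CPM at day 4 against 250.5 ± 13.5 CPM at day 0 (log2 difference -0.81 ± 0.12, adjusted p = 0.000394) and 128 ± 9.93 CPM at day 6 (-0.96 ± 0.12, adjusted p = 9.02e-05 against day 0), and day 4 differed from day 2 by -0.51 ± 0.12, adjusted p = 0.00633. Its relative Slc1a4 (ASCT1), which exchanges alanine, serine and cysteine, ranged over 26.5 to 52.2 CPM at day 6 against 47.7 to 70.9 CPM at day 0 (-0.67 ± 0.23, adjusted p = 0.0378). These ranges overlapped, and the call was lost without any one of day 0 replicate 2 or 3, day 2 replicate 1, day 6 replicate 2 and the 3 day 4 libraries (adjusted p 0.0514 to 0.126). Without day 6 replicate 2 the difference was -0.42. The call was also lost without the filter on low values and in the fit of days 0 and 6 alone (adjusted p up to 0.138).

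Of 8 tested genes of family 38, the plasma membrane carrier Slc38a2 rose at days 4 and 6. The lysosomal Slc38a9 fell at day 4 and the low Slc38a11 fell at both days. Slc38a2 (SNAT2; chr15:96687392-96699730, minus strand), which concentrates alanine, glutamine and other small neutral amino acids and whose upstream sequence is shown above, ranged over 145 to 191 CPM at day 0, 224 to 268 CPM at day 2, 230.2 to 270.0 CPM at day 4 and 247 to 274 CPM at day 6. Each library of days 2, 4 and 6 lay above all those of day 0. The means were 247 ± 20.8 CPM at day 4 against 173 ± 24.7 CPM at day 0 (log2 difference 0.51 ± 0.14, adjusted p = 0.0154), and 264 ± 15.1 CPM at day 6 (0.61 ± 0.14, adjusted p = 0.00546); day 2 did not pass (0.50 ± 0.14, adjusted p = 0.174). The day 4 call was lost without day 4 replicate 2 (adjusted p = 0.0691) and under median-of-ratios scaling, quantile normalization and edgeR (0.0562 to 0.0784).

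Slc38a9 (chr13:112660751-112738749, plus strand), which signals lysosomal arginine to the kinase complex mTORC1, was at 11 to 15.4 CPM at day 4 against 16.4 to 26.7 CPM at day 0 and 25.5 to 31.1 CPM at day 2. The day 4 range lay below both others, and the differences were -0.74 ± 0.25, adjusted p = 0.0408 against day 0 and -0.996 ± 0.25, adjusted p = 0.00959 against day 2. The call against day 0 was lost without any one of day 0 replicate 2 or 3, day 6 replicate 1 and the 6 libraries of days 2 and 4 (adjusted p 0.0529 to 0.136). Slc38a11 was at 0.293 to 0.653 CPM at day 6 against 1.51 to 2.71 CPM at day 0 (-1.01 ± 0.20, adjusted p = 0.00262). Its day 4 difference from day 0 was -0.63 ± 0.20, adjusted p = 0.0328, a call lost without replicate 2 or 3 of day 0 or replicate 1 or 3 of day 4 (adjusted p 0.072 to 0.111). Of the 5 tested genes of the family that passed nowhere, Slc38a10 ranged over 133 to 174 CPM and Slc38a1 over 70.5 to 157 CPM, Slc38a7 over 22 to 37.7 CPM, Slc38a6 over 1.99 to 7.21 CPM and Slc38a4 over 1.31 to 4.54 CPM.

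The family 6 carriers called at days 4 and 6 were all lower. They were 2 of 7 tested amino acid carriers and 2 of 4 tested carriers of neurotransmitters, osmolytes or creatine, the same counts at both days. Slc6a14 (ATB0,+; chrX:21714896-21742355, plus strand), which concentrates neutral and cationic amino acids at the luminal membrane, had 433, 425 and 527 CPM at day 0, 437, 518 and 448 CPM at day 2, 232, 142 and 209.8 CPM at day 4 and 158, 117 and 337 CPM at day 6. All libraries of days 4 and 6 lay below those of days 0 and 2, and day 6 replicate 3 was the highest of them. Slc6a14 averaged 194 ± 46.8 CPM at day 4 against 462 ± 56.9 CPM at day 0 (log2 difference -1.27 ± 0.32, adjusted p = 0.0113) and 204 ± 117 CPM at day 6 (-1.32 ± 0.32, adjusted p = 0.00857). The day 4 call was lost without day 4 replicate 2 (adjusted p = 0.052).

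Slc6a7, the proline carrier first known from brain, lies on chromosome 18 and had 7.91, 8.07 and 5.80 CPM at day 0, 7.59, 13.0 and 12.5 CPM at day 2, 2.33, 2.77 and 4.21 CPM at day 4 and 1.78, 0.783 and 4.42 CPM at day 6. Its levels of days 4 and 6 lay below all those of days 0 and 2. The means were 2.33 ± 1.88 CPM at day 6 against 7.26 ± 1.27 CPM at day 0 (log2 difference -1.45 ± 0.36, adjusted p = 0.00943), and day 4 differed from day 0 by -1.02 ± 0.36, adjusted p = 0.0489 and from day 2 by -1.54 ± 0.36, adjusted p = 0.00678. The day 4 call against day 0 was lost without any one of 10 libraries (adjusted p 0.0509 to 0.14), namely all 9 libraries of days 0, 2 and 4 and day 6 replicate 1. Slc6a9, a glycine carrier, ranged over 29.6 to 60.3 CPM and Slc6a17 over 10.5 to 53.9 CPM, and neither passed. Slc6a19, the main neutral amino acid carrier of the small intestine, stayed between 0.265 and 2.16 CPM, Slc6a20a between 0.208 and 2.49 CPM and Slc6a15 between 1.08 and 4.67 CPM.

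Slc6a4 (the serotonin transporter SERT; chr11:76998603-77032340, plus strand), which clears serotonin in the mucosa, had 9.66, 5.11 and 5.20 CPM at day 0, 7.19, 4.15 and 6.74 CPM at day 2, 1.07, 1.22 and 1.30 CPM at day 4 and 0.756, 0.914 and 3.31 CPM at day 6. Days 4 and 6 lay below days 0 and 2 in every library. Slc6a4 averaged 1.20 ± 0.117 CPM at day 4 against 6.65 ± 2.60 CPM at day 0 (log2 difference -1.75 ± 0.34, adjusted p = 0.00265), and at day 6 the difference was -1.60 ± 0.34, adjusted p = 0.00409. The GABA carrier Slc6a11 was at 0.265 to 0.809 CPM at day 6 against 1.67 to 3.65 CPM at day 0 (-1.36 ± 0.25, adjusted p = 0.00169). Its day 4 difference was -0.80 ± 0.25, adjusted p = 0.0312, with overlapping libraries. That call was lost without replicate 2 or 3 of day 0 or replicate 1 or 3 of day 4 (adjusted p 0.0908 to 0.114) and in the fit of days 0 and 4 alone (0.0502). The creatine carrier Slc6a8 and the taurine carrier Slc6a6 passed in no comparison and ranged over 222 to 475 and 124 to 319 CPM.

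**Figure D4:**
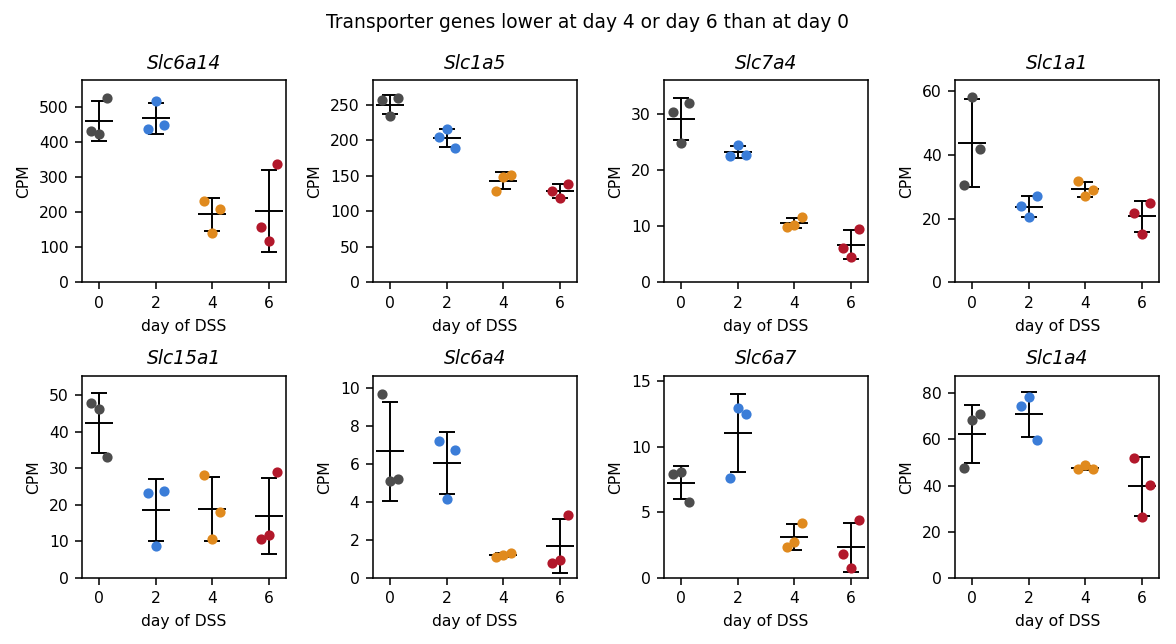
CPM in each library (points), with the day mean and SD (bars), for 8 transporter genes that were lower at day 4 or day 6 than at day 0; the vertical axes start at 0 and differ between panels. Slc6a14, Slc1a5 and Slc7a4 show no overlap between days 4 and 6 and days 0 and 2, while Slc1a4 at day 6 overlaps with day 0.

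Of the 3 family 43 carriers, 1 was higher and 1 lower at day 4, and 2 were higher at day 6. Slc43a3 (chr2:84936579-84958509, plus strand), which carries purine nucleobases rather than amino acids, had 34.0, 28.2 and 33.8 CPM at day 0, 38.9, 37.5 and 41.6 CPM at day 2, 56.1, 87.8 and 65.5 CPM at day 4 and 179.9, 277 and 89.2 CPM at day 6. All day 4 libraries lay above those of days 0 and 2 and all day 6 libraries above those of day 4, and within day 6 replicate 2 was the highest and replicate 3 the lowest. The means were 182 ± 93.8 CPM at day 6 against 32.0 ± 3.28 CPM at day 0 (log2 difference 2.33 ± 0.32, adjusted p = 0.000216) and 69.8 ± 16.3 CPM at day 4 (1.08 ± 0.32, adjusted p = 0.0228). The day 4 call was lost without any one day 0 library or without day 4 replicate 2 or 3 (adjusted p 0.0513 to 0.0898).

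Slc43a2 (LAT4; chr11:75531694-75577575, plus strand), which lets large neutral amino acids move down their gradient, had 18.6, 28.8 and 22.9 CPM at day 0, 24.6, 28.3 and 29.3 CPM at day 2, 21.6, 33.5 and 29.5 CPM at day 4 and 52.4, 91.1 and 33.6 CPM at day 6. The day 6 libraries were the 3 highest, though day 6 replicate 3 was barely above day 4 replicate 2. Slc43a2 averaged 59.0 ± 29.3 CPM at day 6 against 23.4 ± 5.13 CPM at day 0 (log2 difference 1.20 ± 0.30, adjusted p = 0.00998), and the fit of days 0 and 6 alone gave an adjusted p of 0.0545. Slc43a1 (LAT3) was at 4.31 to 7.31 CPM at day 4 against 9.81 to 11.8 CPM at day 0 (-0.84 ± 0.22, adjusted p = 0.0139), a call lost without day 0 replicate 3 or day 4 replicate 1 (adjusted p 0.0509 to 0.0591), and it did not pass at day 6 (-0.37 ± 0.22, adjusted p = 0.215).

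Of 3 tested proton-coupled carriers, 1 was higher at day 4 and 2 at day 6. The low Slc36a2, a carrier of glycine and proline, was at 0.91 to 3.90 CPM at day 4 and 2.22 to 5.67 CPM at day 6 against 0.21 to 0.269 CPM at day 0. These ranges did not overlap with day 0, and the differences were 1.37 ± 0.33, adjusted p = 0.00866 and 2.01 ± 0.33, adjusted p = 0.000783. Slc36a1 (PAT1), a lysosomal and luminal carrier, was at 72.6 to 99.0 CPM at day 6 against 51.0 to 64.7 CPM at day 0 (0.50 ± 0.16, adjusted p = 0.0282). That call was lost without day 0 replicate 1 or 3 or day 6 replicate 2 (adjusted p 0.0766 to 0.0897) and under both rescalings, edgeR and DESeq2 (up to 0.114). Slc36a4 ranged over 5.49 to 16.1 CPM and did not pass.

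Of 4 tested peptide carriers, the lysosomal Slc15a3 had the largest log2 difference of all tested transporters at days 4 and 6, and the luminal Slc15a1 was lower at day 6. Slc15a3 (PHT2; chr19:10839727-10859362, plus strand), which moves histidine and short peptides out of lysosomes and is known from immune cells, had 3.42, 3.96 and 4.46 CPM at day 0, 6.41, 3.93 and 4.27 CPM at day 2, 53.0, 62.1 and 49.8 CPM at day 4 and 95.9, 89.2 and 60.5 CPM at day 6. Every day 4 and day 6 library stood far above every library of days 0 and 2. The means were 54.9 ± 6.39 CPM at day 4 against 3.94 ± 0.523 CPM at day 0 (log2 difference 3.50 ± 0.21, adjusted p = 8.4e-07), and 81.9 ± 18.8 CPM at day 6 (4.04 ± 0.21, adjusted p = 2.14e-07). Tmem132a, which overlaps Slc15a3 on the opposite strand, was higher by 0.68 at day 4 and 1.10 at day 6 on the log2 scale, with at most 44.3 CPM. Its reads and those of Slc15a3 may be shared, since the strand setting of the counting is not given. The same holds for Slc7a4 and P2rx6, and for Slc15a4, Slc3a1, Slc6a9, Slc6a19, Slc6a20a, Slc7a7 and Slc1a1, which listed genes on the opposite strand also overlap. All these overlaps are of whole gene spans, and whether the exons overlap was not checked. In the annotation Slc7a5 overlaps the opposite-strand gene Gm20388, not analysed here.

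Slc15a1 (PepT1; chr14:121459621-121505252, minus strand), which takes up short peptides from the lumen, had 47.9, 46.3 and 33.0 CPM at day 0, 23.2, 8.85 and 23.8 CPM at day 2, 28.1, 10.6 and 18.1 CPM at day 4 and 10.5, 11.6 and 29.1 CPM at day 6. All later libraries lay below the lowest of day 0, including those of day 2. Slc15a1 averaged 17.1 ± 10.4 CPM at day 6 against 42.4 ± 8.18 CPM at day 0 (log2 difference -1.39 ± 0.46, adjusted p = 0.0342), while days 4 and 2 did not pass (-1.20 ± 0.46, adjusted p = 0.0631, and -1.25 ± 0.46, adjusted p = 0.263). The call was lost without any one day 0 library or without day 6 replicate 1 or 2 (adjusted p 0.0501 to 0.125). Slc15a2 (PepT2) ranged over 0.374 to 27.3 CPM, with day 0 at 14.1, 0.374 and 0.945 CPM and day 2 at 15.5 to 27.3 CPM (2.67 ± 0.83, adjusted p = 0.21), and Slc15a4, the relative of Slc15a3, over 19.6 to 30.0 CPM; neither passed.

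**Figure D5:**
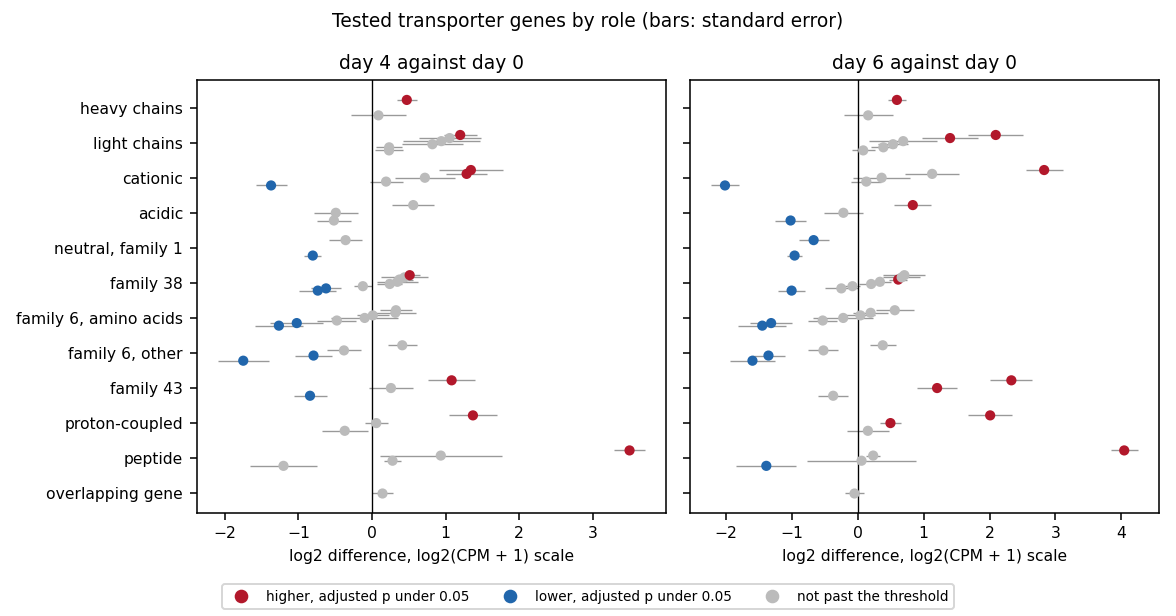
Log2 differences from day 0, with their standard errors as bars, of the 48 tested transporter genes at day 4 (left) and day 6 (right), one row of points per role. Red and blue points passed limma's test as higher and lower and grey points did not; the 2 rows of family 6 hold blue and grey points, and the light chains red and grey ones.

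Per kilobase of exon, Slc6a14 led all transporters at day 0 with 134 ± 16.6 CPM per kb, ahead of Slc6a8 with 84.96 ± 8.76 and Slc1a5 with 60.0 ± 3.24. The libraries of these 3 genes did not overlap at day 0, and Slc38a10 (25.2 ± 2.54), Slc3a2 (23.0 ± 2.11) and Slc6a6 (20.8 ± 5.5) followed with overlapping ranges. At day 2 Slc6a14 still led with 136 ± 12.9 CPM per kb. At day 4 Slc6a8 stood first with 65.3 ± 8.11 CPM per kb and Slc6a14 second with 56.6 ± 13.6, and at day 6 they were at 61.2 ± 21.4 and 59.3 ± 34.0. The ranges of these 2 genes overlapped on both days. Within libraries, Slc6a8 was above Slc6a14 in every day 4 library, while at day 6 the order differed between libraries. Slc43a3 was the third at day 6 with 40.8 ± 21.0 CPM per kb, and its range took in those of Slc3a2 and Slc1a5. Slc6a14 alone made up 25.7% of the summed level of all 71 genes at day 0. The 5 most abundant genes made up 62.7% at day 0, 59.2% at day 2, 47.9% at day 4 and 47.4% at day 6. The sum was 523 ± 31.2 CPM per kb at day 0, 502 ± 13.4 at day 2, 451 ± 4.11 at day 4 and 479 ± 32.3 at day 6. The range at day 4 (446 to 454) lay below those of day 0 (489 to 551) and day 2 (492 to 517). That of day 6 overlapped with that of day 0.

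Genes outside these families that use or sense the same amino acids were counted as lists. Of all tested genes, 21.2% were higher and 12% lower at day 4, with a median of 0.13. At day 6 these were 23.5% and 12.4%, with a median of 0.14. No list was tested against these values. Of 15 tested arginine and polyamine genes, 5 were higher and 1 lower at day 4 and 7 and 1 at day 6. Nos2, the inducible nitric oxide synthase that uses arginine, averaged 203 ± 97.3 CPM at day 4 against 14.4 ± 9.54 CPM at day 0 (log2 difference 3.79 ± 0.50, adjusted p = 0.00021), and Smox, which oxidizes spermine, 128 ± 23.2 CPM at day 4 against 47.7 ± 3.03 CPM at day 0 (log2 difference 1.40 ± 0.14, adjusted p = 2.79e-05). The arginases Arg2 and Arg1 were higher at day 6 (2.39 ± 0.40, adjusted p = 0.000867, and 1.55 ± 0.50, adjusted p = 0.0308). Otc, the urea cycle enzyme that makes citrulline, was lower, at 1.40 ± 1.09 CPM at day 6 against 16.2 ± 2.16 CPM at day 0 (log2 difference -2.93 ± 0.30, adjusted p = 2.59e-05). Slc7a2 and Slc7a1 are the arginine carriers described above, and these enzymes were measured in the same libraries. The median of this list was 0.29 at day 4 and 0.36 at day 6.

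Of 14 tested glutathione and cysteine genes, 3 were higher and 3 lower at day 4 and 4 and 3 at day 6, with medians of 0.19 and 0.05. Ggt5 and Ggt1, which split extracellular glutathione or its conjugates, averaged 82.0 ± 30.2 CPM at day 6 against 13.9 ± 1.37 CPM at day 0 (log2 difference 2.42 ± 0.24, adjusted p = 2.05e-05) and 12.7 ± 4.70 CPM at day 6 against 1.09 ± 0.527 CPM at day 0 (log2 difference 2.69 ± 0.49, adjusted p = 0.00156). Cbs, which starts cysteine synthesis from homocysteine, was lower at day 4 (-2.57 ± 0.64, adjusted p = 0.00993). Of 24 tested ATF4 and amino acid stress genes, 7 were higher and 3 lower at day 4 and 6 and 5 at day 6, with medians of 0.37 and 0.13. Cebpb, a transcription factor, was higher at day 6 (3.02 ± 0.23, adjusted p = 2.8e-06), and so were Psat1 and Shmt2, of serine and glycine synthesis, at day 4 (1.35 ± 0.30, adjusted p = 0.00587, and 1.12 ± 0.22, adjusted p = 0.00278). Gpt2, a mitochondrial alanine transaminase, was lower at day 4 (-1.71 ± 0.25, adjusted p = 0.000407). Atf4 itself did not pass at day 4 (-0.02 ± 0.14, adjusted p = 0.923) or day 6 (-0.22 ± 0.14, adjusted p = 0.27). Asns, Ddit3, Chac1 and Atf3 of this list passed at neither day. Trib3 of the same list was higher at day 4 (0.87 ± 0.22, adjusted p = 0.00961) and day 6 (0.77 ± 0.22, adjusted p = 0.0169). Mthfd2 was higher at day 4 (0.87 ± 0.27, adjusted p = 0.0283) and did not pass at day 6 (0.39 ± 0.27, adjusted p = 0.282). A part of ATF4 in these changes was not tested.

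Genes that break down branched-chain amino acids were mostly lower: of 19 tested, 11 were lower and 1 higher at day 4 and 10 lower and 2 higher at day 6, with medians of -0.54 and -0.49. Pccb, a subunit of propionyl-CoA carboxylase, averaged 41.2 ± 1.33 CPM at day 4 against 206 ± 35.5 CPM at day 0 (log2 difference -2.28 ± 0.21, adjusted p = 1.55e-05), and Bcat2, the mitochondrial transaminase that starts the breakdown of leucine, isoleucine and valine, 31.3 ± 3.45 CPM at day 4 against 75.7 ± 13.4 CPM at day 0 (log2 difference -1.24 ± 0.16, adjusted p = 0.00021). Bcat1, its cytosolic counterpart, was higher at day 6 (1.43 ± 0.20, adjusted p = 0.000232). Of 17 tested glutamine, glutamate, proline and aspartate genes, 4 were higher and 6 lower at day 4 and 4 and 5 at day 6, with Pycr1, of proline synthesis, at 5.24 ± 1.59 CPM at day 6 against 29.6 ± 2.71 CPM at day 0 (log2 difference -2.32 ± 0.19, adjusted p = 4.05e-06). The medians of that list were -0.14 and -0.17.

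Of 13 tested peptidases of the brush border or lumen, 1 was higher and 4 lower at day 4 and 3 and 5 at day 6, with medians of -0.37 and -0.15. Mep1a, a meprin subunit, and Dpep1, a dipeptidase, averaged 44.7 ± 19.0 CPM at day 4 against 335 ± 54.6 CPM at day 0 (log2 difference -2.94 ± 0.31, adjusted p = 4.88e-05) and 65.4 ± 18.5 CPM at day 4 against 361 ± 119 CPM at day 0 (log2 difference -2.43 ± 0.27, adjusted p = 6.36e-05). They release the short peptides and amino acids that luminal carriers such as Slc15a1 take up. Of 12 tested amino acid carriers of other families, 1 was higher and 1 lower at day 4 and 1 higher at day 6: Slc25a22, which brings glutamate into mitochondria, averaged 103 ± 1.63 CPM at day 4 against 30.7 ± 3.40 CPM at day 0 (log2 difference 1.72 ± 0.10, adjusted p = 8.46e-07). The medians were -0.06 and -0.03. Of 10 tested accessory proteins, 2 were higher and 2 lower at day 4 and 4 and 1 at day 6, including Nedd4l, a ubiquitin ligase that removes carriers from the membrane (1.29 ± 0.30, adjusted p = 0.00687 at day 6), with medians of 0.30 and 0.29. Of 21 tested genes of lysosomal amino acid sensing, 2 were higher and 1 lower at day 4 and 3 and 0 at day 6, with Tfe3, a lysosomal transcription factor, at 0.80 ± 0.16, adjusted p = 0.00273 at day 6 and medians of -0.02 and 0.23. None of the genes on these 9 lists passed limma's test at day 2.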

How the data were processed

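Poly(A) RNA of 12 colon libraries was read as 150-base pairs, per the labels' protocols, from cDNA whose second strand carried dUTP. The submitters' processing notes name mm10, HISAT2 2.2.1 as aligner and featureCounts 2.0.1 as counter, while annotation and strand setting are not given. The authors deposited CPM values, counts scaled to a common total, for 25904 genes. At least 99.9961% of the values in each library lay within 0.1 of whole reads, and 1 read was worth 0.0244 to 0.0322 CPM. Reads were amplified and carried no molecular identifiers, so they are not independent molecules.

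The 15246 genes that reached 1 CPM in 3 or more libraries were fitted with limma 3.58.1 in R 4.3.3 on log2(CPM + 1), with a pseudocount of 1, the 4 day means, 1 residual variance over the 12 libraries, trended and robust empirical Bayes moderation, and Benjamini-Hochberg adjustment. The F test came from the same fit. Days came from the time point labels and replicate numbers from the titles. Nothing in the labels says that replicates are separate animals, so the spread behind the p-values is that between these samples and may be technical. The members and the gene lists were chosen with earlier results of these data known. Members with an adjusted p under 0.05 and a log2 difference of at least 1 at day 4 or 6, and a mean of at least 5 CPM on 1 day, were given with every library, and the rest by range. From each companion list, at most 3 genes of the commoner direction and 1 of the other were named per day. Atf4, Asns, Ddit3, Chac1 and Atf3, which did not pass, were named besides, and so were Trib3 and Mthfd2, which did.

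Positions and exon lengths are from GENCODE M21 (GRCm38, which is mm10), where all 71 symbols had 1 gene. Promoters are from RefSeq for GRCm38.p6, where 52 of the 71 had an entry. Alternatives were run for the members: 11 settings, among them edgeR 4.0.16 and DESeq2 1.42.0 on the recovered reads, and each of the 12 libraries left out. The tests of limma, edgeR and DESeq2 were tried on a simulated comparison of day 4 with day 0. Of 100 genes changed by 1 on the log2 scale, limma recovered 39%, edgeR 40% and DESeq2 64%. Of 100 changed by 2, they recovered 93%, 93% and 97%, and false calls numbered 6, 6 and 24. Only these genes were changed in the simulation, and all had a mean of at least 5 CPM. In the measured comparison of day 4 with day 0 limma called 5058 genes. The shares recovered therefore need not hold for the measured comparison. A gene that passed in no comparison may still have changed. The F test and the other comparisons were not simulated. The values of 1 untested member are not reported here.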

Additional observations from a re-analysis of the deposited data

How the results depend on the processing

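The direction of each of the 53 differences that passed the test held under every alternative run for it. Of these calls, 7 of 17 at day 4 against day 0, 13 of 21 at day 6 against day 0, 12 of 14 at day 4 against day 2 and 0 of 1 at day 6 against day 4 passed under every alternative. The cause of the changes below was not tested. At day 2 DESeq2 called 2 higher and 1 lower members, beside 190 and 350 of all 15246 genes. Higher members at day 4 numbered 4 with quantile normalization (8.33%, against 15.1% of all genes). They numbered 5 both in edgeR and with median-of-ratios scaling (10.4%, against 15.8% and 15.9%). Lower members at day 4 numbered 5 among genes with a mean of at least 5 CPM (14.3%, against 11.6%). Fitting only the 2 days compared gave 5 higher at day 6 against day 0 (10.4%, against 12.5% of all genes). It gave 11 higher at day 4 against day 2, beside 4479 of all 15246 genes. At day 6 against day 4 it gave 0 higher, and 0 of all genes were called in either direction. DESeq2 called 11 lower at day 4 against day 2, beside 2841 of all genes. At day 6 against day 4, median-of-ratios scaling gave 2 higher, edgeR 2 and DESeq2 4, beside 334, 315 and 839 of all genes.

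Leaving out 1 library at a time gave 0 to 1 higher and 0 to 1 lower at day 2, beside 4 to 206 and 9 to 351 of all genes. It gave 4 to 11 higher (8.33% to 22.9%) and 4 to 10 lower (8.33% to 20.8%) at day 4. All genes had 14.8% to 28.5% and 8.47% to 15.8% there. At day 6 there were 8 to 16 higher (16.7% to 33.3%) and 8 to 11 lower (16.7% to 22.9%). All genes then had 17.2% to 30.5% and 9.16% to 15.1%. For day 4 against day 2 the same fits gave 6 to 9 higher and 6 to 10 lower, beside 2453 to 3945 and 1376 to 2590 of all genes. For day 6 against day 4 they gave 0 to 5 higher and 0 to 2 lower, beside 73 to 1470 and 42 to 780. For the F test they gave 15 to 31, with no share of all genes taken. With a replicate block there were 10 higher and 10 lower at day 4 (20.8% each), against 22.8% and 12.8% of all genes. At day 6 there were 12 and 10 (25.0% and 20.8%), against 24.7% and 13.3%. At day 4 against day 2 the block gave 7 and 8, beside 3352 and 2067 of all genes. It gave 1 and 0 at day 6 against day 4, beside 305 and 161, none at day 2, and 26 by the F test. The block ended the day 6 calls of Slc1a4 (adjusted p = 0.0538) and Slc1a7 (0.0556). The numbers share no stated source: same-numbered libraries had residual correlations of -0.212 to 0.636 (median 0.0384) and others -0.62 to 0.536 (median -0.018). Over all genes, the share of higher calls at day 6 was 65.5% as deposited against 51.4% (median of ratios), 46.5% (quantile), 53.9% (edgeR) and 52.5% (DESeq2). For day 4 against day 2 it was 61.9% against 53.3%, 48.6%, 53.2% and 52%. The sum of the members' levels per kb of exon, rescaled by median of ratios after seeing the data, was 553, 516, 437 and 454 CPM per kb at days 0, 2, 4 and 6. Without the filter on low values 70 members were tested, with 7 higher and 10 lower at day 4 (10% and 14.3%). All genes had 13.8% and 8.48% in that comparison. At day 6 there were 13 and 12 (18.6% and 17.1%), against 16.2% and 8.69% of all genes. Calls lost in the fit of the compared days alone and given above without that loss were those of Slc3a2 (adjusted p = 0.0551), Slc38a2 (0.0608) and Slc36a1 at day 6 against day 0, and of Slc7a2 at day 6 against day 4 (0.111). Calls lost without the filter were those of Slc38a9 (0.0609), Slc6a7 and Slc7a1 at day 4 and Slc15a1 (0.0534) at day 6. That of Slc43a3 at day 4 was lost with quantile normalization (0.0501), and that of Slc6a7 at day 4 with a pseudocount of 0.5, with a mean of at least 5 CPM and in edgeR.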
